A study of Homo sapiens with 8 samples.

Results

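The genes described here are 10 genes of protein folding and quality control in the endoplasmic reticulum (ER): the chaperones HSPA5, HSP90B1, HYOU1, CALR and CANX, the co-chaperone DNAJB9, the disulfide isomerases PDIA4 and PDIA6, the membrane protein HERPUD1 and the transcription factor XBP1. They were chosen by name, as the loci of the expression table whose RefSeq transcript accessions map to these symbols. All 10 were found among the 27757 loci of the table, 1 locus each, and all 10 were among the 12112 loci that passed the filter on low values. The locus of HSP90B1 also lists the microRNA gene MIR3652, and the locus of XBP1 lists both of its RefSeq transcripts, so that the spliced and unspliced forms of XBP1 share 1 value.

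Expression was measured by paired-end RNA sequencing in OVISE, an established human ovarian clear cell carcinoma line, in 4 groups of 2 libraries each. SYK-WT cells carry the intact gene of the tyrosine kinase SYK. In SYK-KO cells it was disrupted with a Cas9 nickase and a pair of guides against exon 2, and single-cell clones were isolated after selection with puromycin. Both genotypes were profiled without treatment and after 24 h with epidermal growth factor (EGF) at 50 ng/ml, giving the groups SYK-WT, SYK-KO, SYK-WT EGF and SYK-KO EGF. The labels do not say how many knockout clones were sequenced, whether the SYK-WT cells went through the same selection, or whether both libraries of each group stem from different cultures. Clone and genotype therefore cannot be told apart, and the p-values measure the spread between libraries, which may be technical.

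The targeted gene SYK was listed at 4.91 and 5.30 FPKM (fragments scaled to the length of the transcript and the depth of the library) in SYK-WT, 3.88 and 3.62 in SYK-WT EGF, 3.11 and 3.43 in SYK-KO, and 2.80 and 3.16 in SYK-KO EGF. Its transcript was lower in SYK-KO (log2 fold change -0.52, limma adjusted p = 0.00289) but present in every library. The guide sites were not read here, and why the transcript remained was not tested. Low FPKM values give an estimate of 22800000 to 26900000 fragments per library, which holds only if each library was scaled by its own fragments. All 8 markers of clear cell carcinoma and epithelium were detected, among them EPCAM at 465 to 564 FPKM and PAX8 at 148 to 234 FPKM. The lowest of them, NAPSA, was at 0.787 to 5.37 FPKM, so it was not at 1 FPKM in every library. All 6 haematopoietic, 5 fibroblast and 4 endothelial markers were below 1 FPKM in every library. The SYK-WT libraries differed most from each other, with a median absolute difference of 0.15 on the log2 scale over the tested loci, against 0.0669 to 0.0828 within the other groups.

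Secreted and membrane proteins fold in the ER, where HSPA5 (BiP) binds unfolded chains, calnexin and calreticulin hold newly made glycoproteins, and disulfide isomerases join cysteines. When unfolded proteins accumulate, the sensors IRE1, ATF6 and PERK start the unfolded protein response: IRE1 splices the XBP1 message into one that encodes an active factor, ATF6 is cut at the Golgi to release its own, and PERK favours translation of ATF4. XBP1 and ATF6 act through short promoter elements, chiefly the ER stress response element (ERSE) and ERSE-II, and these 10 genes are standard readouts of those arms.

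The promoter elements are shown because 8 of the 10 members hold an ERSE or an ERSE-II, though no single element is common to all. Windows from 250 bases before to 50 bases after each annotated start (RefSeq, GRCh38.p14) were searched on both strands for ERSE (CCAAT, then any 9 bases, then CCACG), ERSE-II (ATTGG, then any 1 base, then CCACG) and the unfolded protein response element UPRE (TGACGTGG). ERSE was found in 27 of 35116 windows (0.0769%), ERSE-II in 19 (0.0541%) and UPRE in 256 (0.729%). Among the members, 6 of 10 held an ERSE (HSPA5, HSP90B1, PDIA6, CALR, CANX and XBP1) and 2 of 10 an ERSE-II (HYOU1 and HERPUD1). HYOU1 also held a UPRE, which overlaps the more distant of its ERSE-II copies. PDIA4 and DNAJB9 had no exact match to these letters in this window. The stretches around the elements follow, 5′ to 3′ on the strand of the gene, with ERSE or ERSE-II in capitals.
HSPA5: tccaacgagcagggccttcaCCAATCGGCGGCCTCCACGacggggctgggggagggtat
HSP90B1: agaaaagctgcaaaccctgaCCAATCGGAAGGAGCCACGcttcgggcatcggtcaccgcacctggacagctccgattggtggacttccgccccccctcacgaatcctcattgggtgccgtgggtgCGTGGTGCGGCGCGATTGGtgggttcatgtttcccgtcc
PDIA6: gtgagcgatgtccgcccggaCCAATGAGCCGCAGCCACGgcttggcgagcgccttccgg
CALR: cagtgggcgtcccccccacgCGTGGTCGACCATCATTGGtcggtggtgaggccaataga
CANX: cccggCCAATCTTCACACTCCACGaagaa
XBP1: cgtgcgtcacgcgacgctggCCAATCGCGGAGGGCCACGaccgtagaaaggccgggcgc
HYOU1: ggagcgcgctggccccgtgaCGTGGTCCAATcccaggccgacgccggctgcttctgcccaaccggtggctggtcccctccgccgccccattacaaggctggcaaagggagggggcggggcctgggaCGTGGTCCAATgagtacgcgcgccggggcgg
HERPUD1: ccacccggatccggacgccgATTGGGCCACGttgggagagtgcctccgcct

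On GRCh38.p14 these stretches lie at chr9:125241371-125241429 on the minus strand for HSPA5, chr12:103930196-103930359 on the plus strand for HSP90B1 and chr2:10812833-10812891 on the minus strand for PDIA6. Those of CALR and CANX lie on the plus strand at chr19:12938364-12938422 and chr5:179698773-179698801. That of XBP1 is at chr22:28800583-28800641 on the minus strand, that of HYOU1 at chr11:119057254-119057410 on the minus strand and that of HERPUD1 at chr16:56932005-56932055 on the plus strand. HSP90B1 carried a pair of ERSE copies in opposite orientation, the CALR copy reads on the strand opposite to the gene, and both ERSE-II copies of HYOU1 do so too. Counted from the start, whose first base is 0, the copy of XBP1 lay at -52 to -34, that of HSPA5 at -66 to -48 and that of CALR at -225 to -207. CANX has several annotated starts, and its 1 copy lay at -9 to 9, -151 to -133 or -189 to -171 from 3 of them. A match describes the letters in the window and says nothing of binding in these cells.

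**Figure D1:**
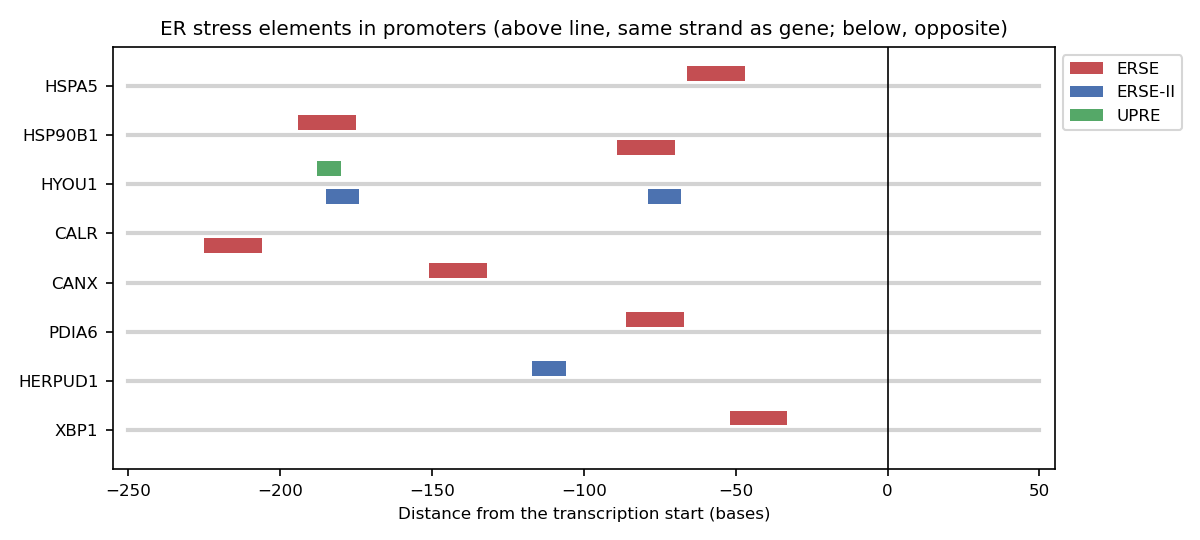
Positions of ERSE, ERSE-II and UPRE matches in the promoter windows of the 8 genes that hold one, as bases from the annotated start (x axis), above the line for the strand of the gene and below it for the opposite strand; CANX is drawn from 1 of its starts, with the element at -151 to -133. HSP90B1 carries a pair of ERSE copies, and HYOU1 a pair of ERSE-II copies and a UPRE.

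All 10 genes were at 1 FPKM or more in each of the 8 libraries. FPKM is a level per length of transcript, so levels can be set side by side between genes. CALR had the highest median over the libraries, 556 FPKM, followed by HSP90B1 at 276, PDIA6 at 204, HSPA5 at 188, CANX at 129, PDIA4 at 128, XBP1 at 68.8, HERPUD1 at 37.1, HYOU1 at 33.8 and DNAJB9 at 13.0. The ranges over libraries overlapped between PDIA6 and HSPA5, between CANX and PDIA4, and between HERPUD1 and HYOU1, so the order within those pairs is not separated. Those of XBP1 and HERPUD1 overlapped narrowly, but XBP1 was the higher of them in every library. In the SYK-WT group CALR stood at the 98.8 percentile of the tested loci and DNAJB9 at the 46.6 percentile. The least abundant gene also varied most: the highest library of DNAJB9 was 2.47 times its lowest, against 1.96 times for HERPUD1, 1.51 times for HYOU1 and 1.10 times for PDIA4.

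**Figure D2:**
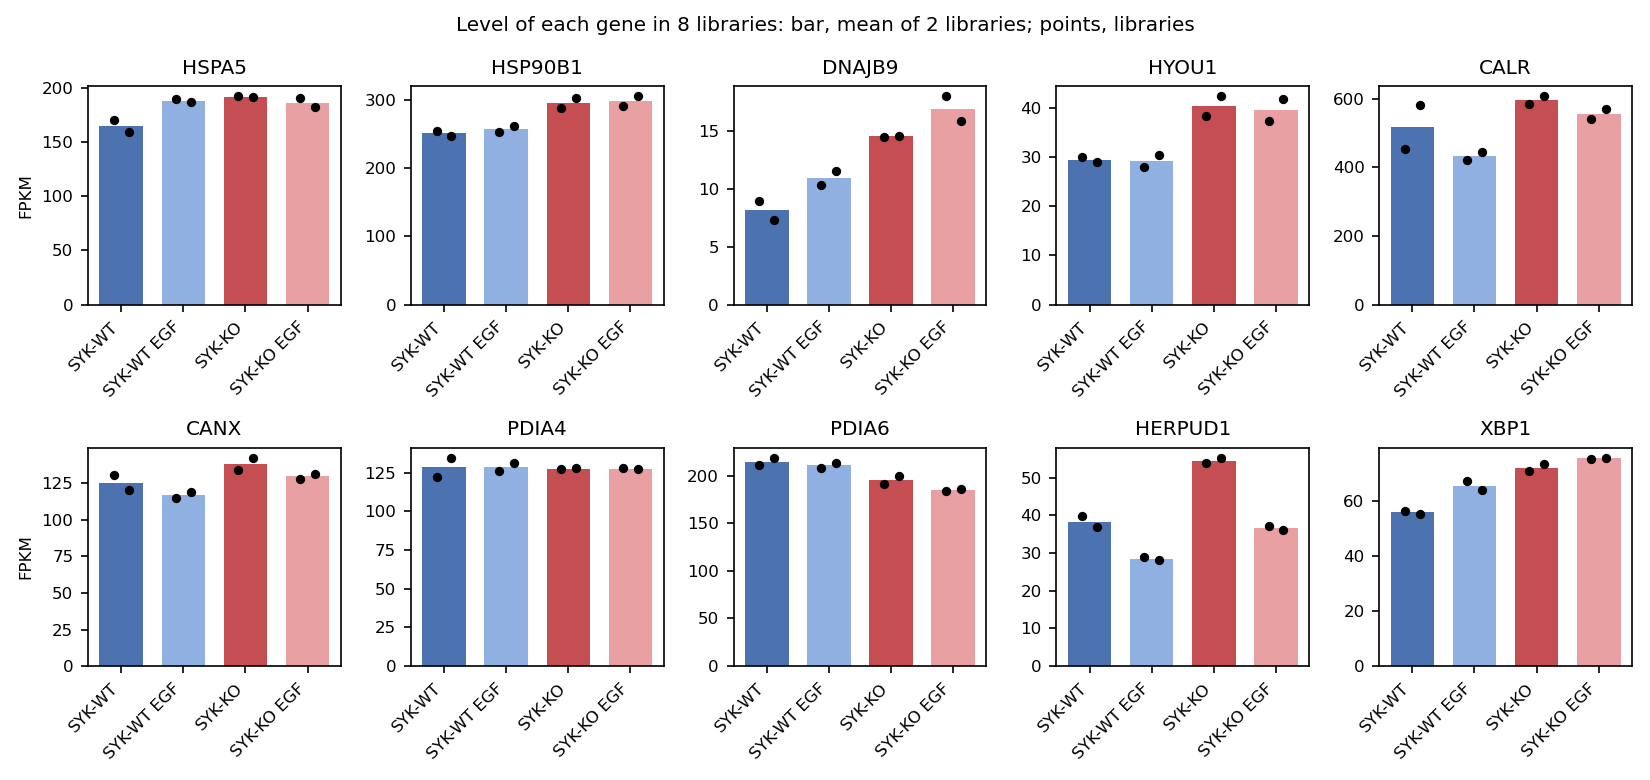
FPKM of each of the 10 genes by group, with the bar at the mean of 2 libraries and 1 point per library; each panel has its own axis from 0. DNAJB9, HYOU1, HERPUD1, XBP1, HSP90B1, CALR and CANX sit higher in both SYK-KO groups than in the SYK-WT group of the same treatment. CALR does so narrowly without EGF, PDIA6 sits lower in both, and PDIA4 is level at 122 to 135 FPKM.

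The first question of the design is how the genotypes differ. Without EGF, 6 of the 10 genes were higher in SYK-KO than in SYK-WT and 0 were lower, where a call is a Benjamini-Hochberg adjusted p under 0.05 in limma, on log2(FPKM + 1), over all tested loci. In these bulk libraries, a change in the number of cells of a kind and in RNA per cell cannot be told apart. At an unadjusted limma p under 0.05, 1 gene (PDIA6) was lower. The 6 were DNAJB9 (mean FPKM 78.8% higher), HERPUD1 (42.3%), HYOU1 (37.2%), XBP1 (29.3%), HSP90B1 (17.8%) and HSPA5 (16.4%). With EGF in both genotypes, DNAJB9, HYOU1, HERPUD1, CALR, HSP90B1 and XBP1 were higher in SYK-KO EGF and PDIA6 was lower, 6 and 1 of 10. Genotype differences were common in the whole table: 40.5% of tested loci were called without EGF, 20.3% higher and 20.2% lower, and 43.6% with it, 21.1% higher and 22.5% lower. The median log2 fold change of the 10 genes was 0.23 without EGF and 0.21 with it, beside -0.01 and -0.02 over all tested loci. With only the 2 untreated groups in the fit, the calls of HSPA5 and HSP90B1 ended (adjusted p = 0.0919 and 0.0782).

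The second question is what EGF did within each genotype. In SYK-WT, DNAJB9, XBP1 and HSPA5 rose and HERPUD1 fell, 3 and 1 of 10, where 26.7% of tested loci were called, 14.7% higher and 12.1% lower. In SYK-KO, HERPUD1 fell and 0 of the 10 rose by limma, also 0 at an unadjusted p under 0.05, where 11.8% of tested loci were called, 6.67% higher and 5.13% lower. The medians of the 10 genes were -0.00 and -0.03 on the log2 scale, beside 0.01 and 0.00 over all tested loci. In SYK-WT, 2 of the 4 calls were left with no filter on low values and 1, that of HERPUD1, with only the 2 groups in the fit. HERPUD1 moved with EGF in the direction opposite to its genotype difference. The comparisons are not independent: the SYK-WT libraries are the control of both the EGF comparison in SYK-WT and the untreated genotype comparison.

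**Figure D3:**
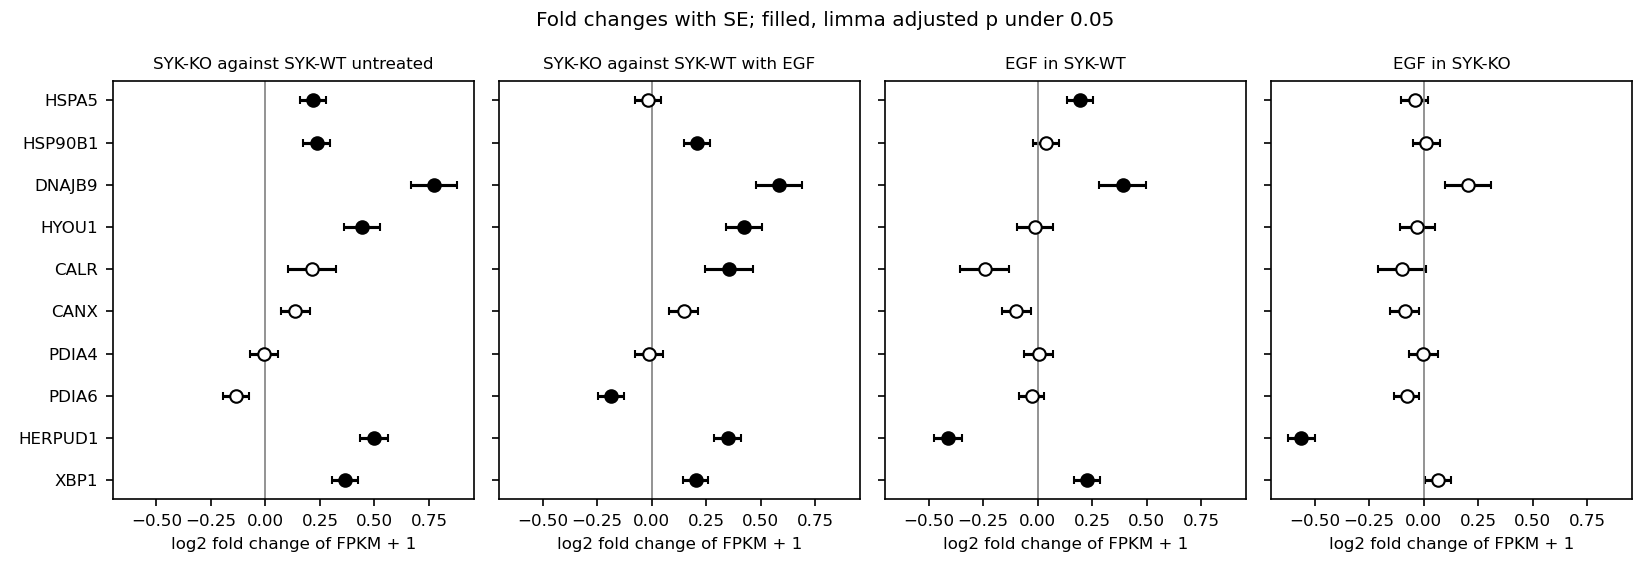
Log2 fold changes of the 10 genes on the log2(FPKM + 1) scale in the 4 comparisons, with bars for the SE; filled points passed the adjusted threshold. In the untreated genotype comparison 6 points lie above 0 and pass, led by DNAJB9 at 0.77, and HERPUD1 is the gene that passes below 0 in both EGF comparisons.

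HSPA5, the ER Hsp70 that binds unfolded chains and holds the stress sensors inactive, lies on chromosome 9 at 127997127 to 128003666 (hg19). It was at 170 and 159 FPKM in SYK-WT, 190 and 186 in SYK-WT EGF, 192 and 191 in SYK-KO, and 190 and 182 in SYK-KO EGF. The SYK-WT libraries were the low ones, and the other 3 groups overlapped or lay close together. HSPA5 was higher in SYK-KO than in SYK-WT without EGF (log2 fold change 0.22, limma adjusted p = 0.0229) and not with EGF (-0.02, adjusted p = 0.856). EGF raised it in SYK-WT by 0.19 ± 0.061 (SE) on the log2 scale (limma adjusted p = 0.0495). The genotype call ended without SYK-KO replicate 1 or 2 (adjusted p = 0.115 and 0.0999), and the EGF call ended when any library other than SYK-WT replicate 1 was left out (adjusted p = 0.0781 to 0.206) and under 5 of the 7 other settings (0.0558 to 0.159).

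DNAJB9 (ERdj4), a J-domain co-chaperone that delivers substrates to HSPA5 and is a known XBP1 target, lies on chromosome 7 at 108202588 to 108215294. It was at 8.98 and 7.27 FPKM in SYK-WT, 10.3 and 11.5 in SYK-WT EGF, 14.5 and 14.6 in SYK-KO, and 18.0 and 15.8 in SYK-KO EGF. No groups overlapped, and every SYK-KO library lay above every SYK-WT library of either treatment. The genotype difference was 0.77 on the log2 scale without EGF (limma adjusted p = 0.00127) and 0.59 with it (adjusted p = 0.00393), the largest among the 10 genes in both comparisons. Leaving out SYK-WT replicate 1 or 2 gave 0.91 or 0.64 without EGF, and the call held. EGF raised DNAJB9 by 0.39 ± 0.107 (SE) in SYK-WT (limma adjusted p = 0.0318). That call ended without SYK-WT replicate 2, either SYK-KO library or either SYK-WT EGF library (adjusted p = 0.0594 to 0.179), with no filter and with only the 2 groups in the fit (0.0711 to 0.102). In SYK-KO the response was 0.20 (adjusted p = 0.27). Its estimated depth was about 490 to 1100 fragments per library.

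HYOU1 (GRP170) is the large ER chaperone that exchanges the nucleotide of HSPA5, and its locus is on chromosome 11 at 118914896 to 118927957. It was at 29.9 and 28.9 FPKM in SYK-WT, 28.0 and 30.3 in SYK-WT EGF, 38.3 and 42.3 in SYK-KO, and 37.3 and 41.7 in SYK-KO EGF. Libraries split by genotype with a wide gap, and EGF groups overlapped with their untreated groups in both genotypes. The genotype difference was 0.44 ± 0.082 (SE) on the log2 scale without EGF and 0.42 with it (limma adjusted p = 0.00454 and 0.00507). EGF changes were -0.01 in SYK-WT and -0.03 in SYK-KO (limma adjusted p = 0.931 and 0.866).

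HSP90B1 (GRP94), the Hsp90 of the ER, which folds a narrower set of clients such as integrins and Toll-like receptors, lies on chromosome 12 at 104324112 to 104341708. It was at 256 and 247 FPKM in SYK-WT, 254 and 263 in SYK-WT EGF, 288 and 304 in SYK-KO, and 291 and 306 in SYK-KO EGF. Every SYK-KO library again lay above every SYK-WT library, and EGF groups overlapped with untreated ones in both genotypes. The genotype difference was 0.23 ± 0.062 (SE) without EGF and 0.21 with it (limma adjusted p = 0.0189 and 0.0276). The untreated call ended without SYK-KO replicate 1 or 2 (adjusted p = 0.0586 and 0.122), and the call with EGF ended without any of the 4 EGF libraries (adjusted p = 0.0687 to 0.151). The window with its paired ERSE copies, shown above, is the only member window with more than 1 exact match to ERSE. Inexact copies were not searched for.

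Calreticulin (CALR, chromosome 19 at 13049414 to 13055304) and calnexin (CANX, chromosome 5 at 179125930 to 179158639) are the lectin chaperones that hold glycoproteins during folding. CALR was at 453 and 583 FPKM in SYK-WT, 423 and 445 in SYK-WT EGF, 585 and 607 in SYK-KO, and 542 and 570 in SYK-KO EGF. The SYK-WT libraries of CALR lay far apart, replicate 2 next to the SYK-KO libraries and replicate 1 next to the SYK-WT EGF libraries. CALR was higher in SYK-KO EGF than in SYK-WT EGF (log2 fold change 0.36, limma adjusted p = 0.0326), which was lost without either SYK-KO library or any of the 4 EGF libraries (adjusted p = 0.0519 to 0.148) and with no filter on low values (0.0767). Its untreated genotype difference was 0.21 (limma adjusted p = 0.158), and its EGF change in SYK-WT was -0.24 ± 0.111 (SE) (adjusted p = 0.142). Those 2 values turn on which SYK-WT library is kept: without replicate 2 the genotype difference was 0.40 (adjusted p = 0.00228), without replicate 1 it was 0.03 (0.737), and without replicate 1 the EGF change was -0.43 (0.00226).

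CANX was at 131 and 121 FPKM in SYK-WT, 115 and 119 in SYK-WT EGF, 134 and 143 in SYK-KO, and 128 and 132 in SYK-KO EGF. The groups did not overlap in any of the 4 comparisons, with SYK-KO highest, and the steps were small. None of its 4 comparisons passed the threshold in limma: the genotype differences were 0.14 and 0.15 (adjusted p = 0.132 and 0.106) and the EGF changes -0.10 and -0.09 (0.31 and 0.449). Without SYK-WT replicate 1, the genotype difference passed in both conditions (adjusted p = 0.04 and 0.0421), and without SYK-WT replicate 2 it passed with EGF (0.0424), as it did with only the 2 EGF groups in the fit (0.0483).

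Neither disulfide isomerase was called higher in SYK-KO. PDIA4 (ERp72), on chromosome 7 at 148700154 to 148725782, was at 122 and 135 FPKM in SYK-WT, 126 and 132 in SYK-WT EGF, 127 and 128 in SYK-KO, and 128 and 127 in SYK-KO EGF. Its groups overlapped in all 4 comparisons, and the 4 log2 fold changes lay between -0.01 and 0.00 (limma adjusted p = 0.888 to 0.997). PDIA6 (P5), which also binds the luminal part of IRE1, has its locus on chromosome 2 at 10861775 to 10978103. It was at 211 and 219 FPKM in SYK-WT, 208 and 214 in SYK-WT EGF, 191 and 200.1 in SYK-KO, and 184 and 187 in SYK-KO EGF. Every SYK-KO library lay below every SYK-WT library, the reverse of the order in HSP90B1 and HYOU1. PDIA6 was lower in SYK-KO EGF than in SYK-WT EGF (log2 fold change -0.19, limma adjusted p = 0.0327), and -0.14 ± 0.058 (SE) without EGF (adjusted p = 0.096). The call ended without either SYK-KO library or any EGF library (adjusted p = 0.0578 to 0.164) and with no mean-variance trend (0.0510). PDIA6 holds an ERSE like HSPA5 and HSP90B1, and PDIA4 holds none in this window.

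HERPUD1 (Herp), an ER membrane protein that serves in ER-associated degradation, lies on chromosome 16 at 56966002 to 56977793. It was at 39.8 and 36.9 FPKM in SYK-WT, 28.9 and 28.2 in SYK-WT EGF, 53.8 and 55.3 in SYK-KO, and 37.2 and 36.1 in SYK-KO EGF. The untreated SYK-KO libraries were highest and the SYK-WT EGF libraries lowest, and SYK-KO EGF came down to the level of untreated SYK-WT. HERPUD1 was higher in SYK-KO by 0.50 on the log2 scale without EGF (limma adjusted p = 0.000872) and by 0.35 with EGF (adjusted p = 0.00371). It fell with EGF in both genotypes, with a log2 fold change of -0.41 ± 0.063 (SE) in SYK-WT (limma adjusted p = 0.00341) and -0.56 in SYK-KO (adjusted p = 0.00196). Its mean FPKM fell by 25.5% in SYK-WT and fell by 32.8% in SYK-KO. It was the one member called in all 4 comparisons, and all 4 calls held under each alternative tried.

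XBP1, the transcription factor of the IRE1 arm, whose own promoter holds an ERSE, lies on chromosome 22 at 29190548 to 29196560. It was at 56.3 and 55.2 FPKM in SYK-WT, 67.0 and 63.8 in SYK-WT EGF, 70.6 and 73.5 in SYK-KO, and 75.2 and 75.5 in SYK-KO EGF. No groups overlapped, and the order of the groups was that of DNAJB9. The genotype difference was 0.36 without EGF (limma adjusted p = 0.00244) and 0.20 with it (adjusted p = 0.0252). EGF raised XBP1 by 0.23 ± 0.058 (SE) in SYK-WT (limma adjusted p = 0.026), and the change in SYK-KO was 0.06 (adjusted p = 0.535). The untreated genotype call held under each alternative. The call with EGF ended without SYK-KO replicate 2 or any of the 4 EGF libraries (adjusted p = 0.0507 to 0.156), and the EGF call ended without either SYK-KO or either SYK-WT EGF library (0.0539 to 0.164) and with only the 2 groups in the fit (0.112). Since 1 value covers both transcripts, these are changes of total XBP1 message and say nothing of its splicing.

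The third question is whether EGF acted differently in the genotypes. HSPA5, DNAJB9 and XBP1 rose with EGF in SYK-WT and were not called in SYK-KO, but the difference between the responses did not pass for any of the 10 genes in limma: 0 were called, where 0.00826% of tested loci were. At an unadjusted p under 0.05, 1 of the 10 (HSPA5) differed. Its response in SYK-KO minus that in SYK-WT was -0.23 on the log2 scale, with a 95% interval of -0.43 to -0.04 (limma adjusted p = 0.506). The intervals of the others include 0: -0.35 to 0.03 for XBP1, -0.36 to 0.06 for HERPUD1, -0.54 to 0.16 for DNAJB9 and -0.22 to 0.51 for CALR, the widest. Those of HYOU1 (-0.29 to 0.25) and HSP90B1 (-0.23 to 0.18) include 0 too, and an interval that includes 0 does not show that the responses are alike.

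**Figure D4:**
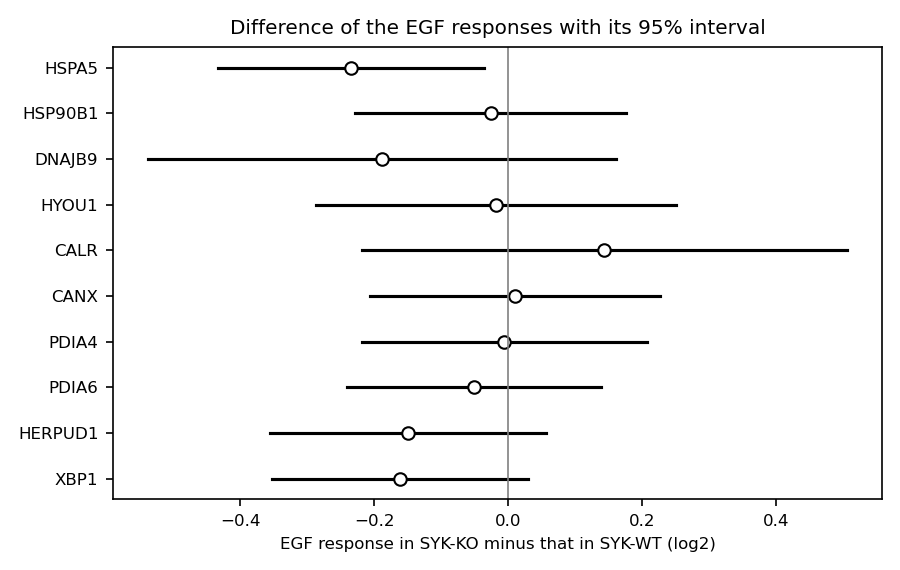
Difference of the EGF responses, SYK-KO minus SYK-WT, on the log2 scale (x axis) with its 95% interval for each of the 10 genes. The interval of HSPA5, -0.43 to -0.04, is the one that does not cross 0, and no adjusted p passed the threshold.

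The authors' deposited table gives q-values for the EGF comparison in SYK-WT and for both genotype comparisons. In it, q-values under 0.05 were given for DNAJB9 and HYOU1 in both genotype comparisons (0.00634 and 0.0313, 0.0177 and 0.0254) and for HERPUD1 with EGF in SYK-WT (0.0439) and in the untreated genotype comparison (0.0109). HERPUD1 had a q-value of 0.0973 in the genotype comparison with EGF in the authors' deposited table. XBP1 (0.329, 0.0755 and 0.396), HSPA5 (0.433, 0.348 and 0.969), HSP90B1 (0.914, 0.308 and 0.378) and CALR (0.259, 0.407 and 0.0862) did not reach 0.05 in the authors' deposited table. Nor did PDIA6 (0.941, 0.618 and 0.447), or DNAJB9 with EGF in SYK-WT (0.255).

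The list of 9 partners of HSPA5 holds J-domain proteins, the exchange factor SIL1, and also SDF2L1, MANF and CRELD2. Of these 9, 4 were higher in SYK-KO and 0 lower without EGF (limma, with 5 and 1 at an unadjusted p under 0.05). With EGF, 3 were higher and 0 lower (3 and 2 unadjusted). The medians of the 9 log2 fold changes were 0.19 and 0.11. Of all tested loci, 20.3% were called higher and 20.2% lower without EGF, and 21.1% and 22.5% with EGF. DNAJC1, a membrane J-domain protein, was higher by 0.77 and 0.85 (limma adjusted p = 0.000573 and 0.000369). SIL1, a nucleotide exchange factor of HSPA5 like HYOU1, was higher by 0.60 and 0.38, and DNAJC10, the J-domain protein that reduces disulfides, by 0.43 and 0.30. DNAJC10 was also the 1 of 9 that rose with EGF in SYK-WT (0.34, limma adjusted p = 0.0135), where 14.7% of tested loci rose. SDF2L1, MANF and CRELD2, which are often induced together with HSPA5, were called in none of the 4 comparisons. Their untreated genotype differences were -0.17, -0.22 and -0.08, and CRELD2 holds an ERSE and SDF2L1 an ERSE-II. Naming these 3 followed from their values.

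Among 11 genes of disulfide formation, 3 were higher in SYK-KO and 0 lower without EGF (limma, 4 and 2 unadjusted). With EGF, 2 were higher and 1 lower. The 1 lower was TXNDC5, whose locus also lists BLOC1S5 and EEF1E1, so its value is not of TXNDC5 alone. The shares over all tested loci were 20.3% higher and 20.2% lower without EGF, and 21.1% and 22.5% with EGF. ERP29 was higher by 0.37 and 0.21 (limma adjusted p = 0.00497 and 0.0444), PDIA5 by 0.29 and 0.43, and the peroxiredoxin PRDX4 by 0.38 without EGF. ERP29 fell with EGF in SYK-KO (-0.32) and the oxidase ERO1A rose in SYK-WT (0.24). In the calnexin cycle the split leaned the other way: of 9 genes, 2 were higher and 4 lower in SYK-KO in each condition, with medians of -0.20 and -0.30. PRKCSH, the beta subunit of glucosidase II, was higher by 0.63 and 0.72, while its catalytic partner GANAB was lower (-0.41 in both), as was MOGS, glucosidase I (-0.39 and -0.47). EDEM1 and EDEM3, which trim mannose from misfolded glycoproteins, rose with EGF in SYK-WT by 0.54 and 0.43 and in SYK-KO by 0.32 and 0.52.

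Of 11 genes of ER-associated degradation beside HERPUD1, 3 were higher and 3 lower in SYK-KO without EGF, and 3 and 4 with it. DERL3 was below the filter. Over all tested loci, 20.3% were higher and 20.2% lower without EGF, and 21.1% and 22.5% with it. UBE2J1, a ubiquitin-conjugating enzyme of the ER membrane, was higher by 0.60 and 0.49, and VCP, the ATPase that extracts substrates, was lower (-0.27 and -0.38). SELENOS, which links VCP to the membrane, was called higher in all 4 comparisons (0.37 and 0.35 with EGF in SYK-WT and SYK-KO, 0.33 and 0.31 between genotypes). Among 13 genes of the translocon and signal peptidase, which pass new chains into the ER, 8 were higher and 0 lower in SYK-KO without EGF (limma, 8 and 1 unadjusted), and 7 and 1 with it, with medians of 0.35 and 0.28. SSR4 was at 161 and 166 FPKM in SYK-WT and 262 and 256 in SYK-KO (0.66, limma adjusted p = 0.000144), and SEC11C was higher by 0.57 and 0.28. In SYK-WT, 4 of the 13 rose with EGF and 0 fell (limma, 5 and 0 unadjusted), among them SEC11C by 0.39 and SEC61B by 0.36. Of all tested loci, 14.7% rose and 12.1% fell in that comparison.

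Of 5 tested sensors and activating proteases, 1 was higher and 1 lower in SYK-KO without EGF, and 2 and 1 with EGF. ATF6B was below the filter. For this list and the next, the shares over all tested loci were 20.3% higher and 20.2% lower without EGF, and 21.1% and 22.5% with EGF. The site-2 protease MBTPS2 was higher by 0.31 and 0.39, the site-1 protease MBTPS1 lower (-0.21 and -0.28), and ATF6 higher by 0.50 with EGF. ERN1, which encodes IRE1 alpha, rose with EGF in SYK-WT by 0.42 (limma adjusted p = 0.0255). Of 8 genes of the PERK and ATF4 arm, 5 were higher and 2 lower in SYK-KO in each condition, with medians of 0.80 and 0.47, above those of the members and of the other 7 lists. ATF4 was at 208 and 208 FPKM in SYK-WT and 327 and 311 in SYK-KO (0.61, limma adjusted p = 0.000422). ASNS, asparagine synthetase, was at 23.6 and 18.2 FPKM in SYK-WT and 57.6 and 52.7 in SYK-KO (1.37, limma adjusted p = 0.000476). ATF3 was higher by 0.99 and 0.96, while PPP1R15A (GADD34), which reverses the PERK signal, was lower (-0.31 and -0.44). In SYK-WT, 4 of the 8 rose with EGF, among them ATF4 by 0.35 and CHAC1 by 1.09, and 1 fell, where 14.7% of tested loci rose and 12.1% fell.

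Chaperones of the cytosol and mitochondria, which answer to other stress factors, were read beside those of the ER. Of 8 tested genes, 4 rose and 1 fell with EGF in SYK-WT and 3 rose and 0 fell in SYK-KO (limma, 3 and 0 unadjusted). Over all tested loci, 14.7% rose and 12.1% fell in SYK-WT, and 6.67% and 5.13% in SYK-KO. HSPA8, the constitutive cytosolic Hsp70, went from 663 and 551 FPKM in SYK-WT to 852 and 884 in SYK-WT EGF (0.52, limma adjusted p = 0.0114) and rose by 0.44 in SYK-KO. HSPH1, its exchange factor, rose by 0.71 and 0.60. Between the genotypes 0 were higher and 1 lower without EGF (limma, 1 and 2 unadjusted), and 1 higher and 1 lower with EGF. The medians of the 8 genes were 0.01 and 0.00. The lower one was HSPE1 in both, and its locus also lists HSPE1-MOB4 and MOB4. Of all tested loci, 20.3% were higher and 20.2% lower without EGF, and 21.1% and 22.5% with EGF. DNAJB1, the J-domain partner of cytosolic Hsp70, was the one higher with EGF (0.20, limma adjusted p = 0.0331), and it rose with EGF by 0.30 in SYK-WT and 0.37 in SYK-KO. HSPA1A and HSPA1B were below the filter. In none of these 8 lists did a gene pass for the difference of the EGF responses in limma. At an unadjusted p under 0.05, the counts were 1 of 9 partners of HSPA5, 2 of 13 translocon genes, 1 of 8 PERK and ATF4 genes, and 0 in the other 5 lists.

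**Figure D5:**
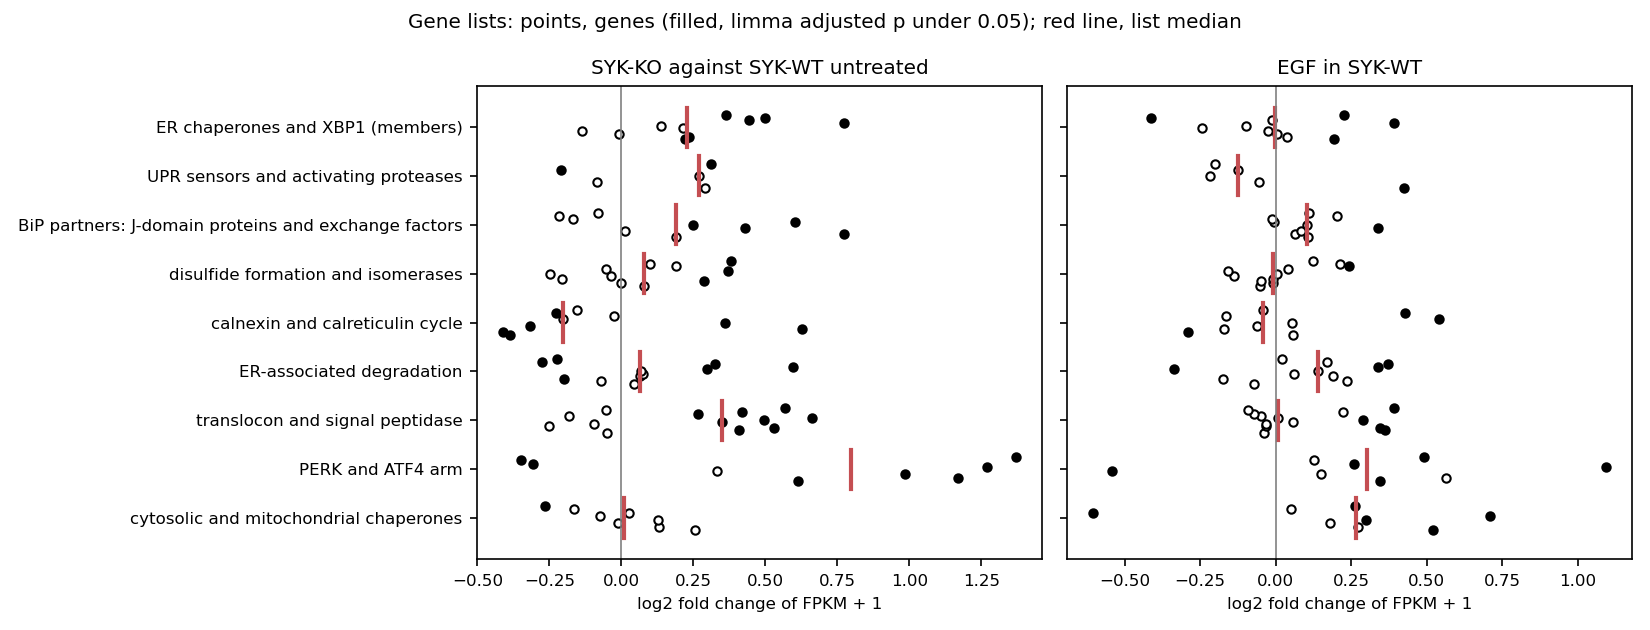
Log2 fold changes of the genes of each list between untreated genotypes (left) and with EGF in SYK-WT (right), 1 point per gene, filled where it passed, with a red line at the list's median. The median of the translocon genes in the untreated genotype comparison is 0.35 and that of the calnexin cycle -0.20, beside 0.23 for the 10 members.

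Likeness of pattern was measured as the root mean square difference of the 8 centred log2 values, over 11673 loci with a single symbol. The 5 loci nearest to HSPA5 were FIS1, ZNF25, MRPL14, ATXN3 and RSRC2, at 0.0236 to 0.0357. The 5 nearest to XBP1 were TDRKH, ATP6V0E1, ZCCHC2, KIFAP3 and DDX24, at 0.0334 to 0.0451. No member was among them: the member nearest to HSPA5 was XBP1, at 0.104 and rank 1001, and HSPA5 was the one nearest to XBP1, at rank 574. HSP90B1 was not ranked because its locus lists MIR3652.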

How the data were processed

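RNA sequencing of 8 OVISE libraries, 2 in each of 4 groups named by the sample titles, was used. FPKM values per locus are those of the authors' deposited table. TopHat, Cufflinks and Cuffdiff 2.2.1.3 with the build hg19 are named in the submitters' processing notes. Neither parameters nor scaling or strand is given in the sources used here, so overlapping and antisense genes cannot be told apart. The q-values are the authors' own, per the file headers. Repeated columns of a library were equal, and 6 columns of authors' means were not used. Locus starts were converted to count from 1. The hg19 positions given for genes are those of their loci, which can reach past the gene: HSPD1 and HSPE1 are listed with the same interval. Symbols came from RefSeq and GENCODE release 29 accessions.

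Loci that reached 1 FPKM in 2 or more libraries were tested with limma 3.58.1 (R 4.3.3, trend) on log2(FPKM + 1), with 1 mean per group, 4 residual degrees of freedom and Benjamini-Hochberg adjustment over all 12112 loci. Such fold changes understate those of low genes. The fit was tested on simulated data. Python 3.11.15, pandas 2.3.3 and matplotlib 3.10.9 handled tables and plots. Promoter windows came from RefSeq (GRCh38.p14), and letters were matched exactly. Named genes were the 10 members, up to 3 called genes per list and comparison with the smallest adjusted p, and the 5 loci nearest in pattern to HSPA5 and to XBP1. Beyond this rule, SYK, cell type markers, genes below the filter, and TXNDC5 and HSPE1, whose loci list several genes, were named. SDF2L1, MANF, CRELD2 and the other genes that hold an ERSE were named after values had been seen. The members and lists were chosen with earlier results of these data known. The alternatives were another pseudocount (0.1), no filter, equalised library medians, 2 groups alone, a replicate block, no trend and leaving out each library. With 2 libraries per group, no exact permutation test of a single gene could pass the threshold.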

Additional observations from a re-analysis of the deposited data

How the results depend on the processing

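Of the 18 calls made for the 10 genes in the 4 comparisons of 2 groups, 9 were kept under each of the 15 alternatives and 9 were lost under at least 1, as given beside each gene. The number of members called with EGF in SYK-WT was 4, and became 2 with no filter on low values, 1 in a fit of the 2 groups alone and 1 to 5 when each library was left out in turn. With a library left out, the members called between untreated genotypes numbered 4 to 7 and between genotypes with EGF 3 to 8, and in EGF in SYK-KO it stayed at 1 and for the difference of the responses at 0. With only the 2 groups in the fit, the loci called were 1254 (3238 with all 4 groups) for EGF in SYK-WT, 2646 (1429) for EGF in SYK-KO and 3007 (4902) between untreated genotypes. With each library left out they ranged from 1255 to 5108, 319 to 2984 and 2460 to 5935 in the same order, and from 2952 to 6835 (5277) between genotypes with EGF. For the difference of the responses, 1 locus was called, 2 with no filter, 3 with no trend, and 0 to 867 with a library left out, the 867 on leaving out replicate 1 of SYK-WT and 52 on leaving out its replicate 2. Such fits hold fewer libraries, and the cause of these shifts was not tested.

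Signs reversed only for values that had not been called, in 13 results, with sizes up to 0.0631 on the log2 scale. The untreated genotype difference of PDIA4 was 0.0071 with equalised library medians. With a library left out, PDIA4 ranged from -0.0631 to 0.0724 (EGF in SYK-WT), -0.00688 to 0.00501 (EGF in SYK-KO), -0.0749 to 0.0606 (untreated genotypes), -0.0435 to 0.0182 (genotypes with EGF) and -0.0733 to 0.0622 (difference of responses). HYOU1 ranged from -0.0660 to 0.0442 with EGF in SYK-WT, -0.107 to 0.0498 in SYK-KO and -0.0964 to 0.0606 for the difference. HSP90B1 ranged from -0.0251 to 0.0495 with EGF in SYK-KO and -0.0635 to 0.0112 for the difference, HSPA5 from -0.0470 to 0.0168 between genotypes with EGF, and the differences for CALR and CANX from -0.0390 to 0.326 and -0.0478 to 0.0669.

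Replicate numbers are shared by the groups. Correlations of the replicate differences were 0.161 between SYK-WT and SYK-KO, 0.27 between SYK-WT and SYK-KO EGF, and 0.197 between SYK-KO and SYK-KO EGF. Those of SYK-WT EGF with SYK-WT, SYK-KO and SYK-KO EGF were -0.219, -0.161 and -0.381. As given, the numbers thus do not pair the SYK-WT EGF libraries with those of the other groups. Whether libraries of different groups share a batch was not tested. With the number as a replicate block, the members called stayed at 4, 1, 6, 7 and 0 and the loci called were 3624, 1653, 5261, 5688 and 1 (EGF in SYK-WT, EGF in SYK-KO, untreated genotypes, genotypes with EGF, difference). With the SYK-WT EGF numbers crossed, an alternative chosen after seeing the data, 3 members were called with EGF in SYK-WT and 2 loci for the difference. Fragment estimates were made for DNAJB9 alone, at about 490 to 1100 per library.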

Other observations

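Of the 25 genes with an ERSE, 10 that are not members were tested. SERP1 and EIF2A among them share 1 copy of the element, as do ALG12 and CRELD2. In SYK-WT, 3 of these 10 rose with EGF: FICD, the enzyme that modifies HSPA5 with AMP (0.55), SERP1, a small protein of the translocon (0.30), and TMEM120A (0.64). Without EGF, 4 of the 10 were higher in SYK-KO: SYNPO (2.36), FICD (0.40), SERP1 (0.35) and TMEM120A (0.25). With EGF, SYNPO (2.57) and SERP1 (0.25) were higher. SYNPO was near the floor in SYK-WT and SYK-WT EGF (mean 0.56 and 0.33 FPKM), against 6.91 in SYK-KO and 6.93 in SYK-KO EGF. It passed the filter on low values only through the SYK-KO groups, where it is high, so its place in these counts was tied to that filter. The medians of the 10 were 0.14 with EGF in SYK-WT, 0.11 between untreated genotypes and -0.01 between genotypes with EGF. Over all tested loci, 14.7% rose with EGF in SYK-WT. Between genotypes, 20.3% of them were higher and 20.2% lower without EGF, and 21.1% and 22.5% with EGF. Of 13 tested genes with an ERSE-II that are not members, 1 was higher and 3 lower in SYK-KO without EGF, and 3 and 4 with EGF. These counts describe the genes that hold the letters, were made after values had been seen, and have no test.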
